A study of Mus musculus with 6 samples.

Results

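The GADD45 genes and a group of MAP kinase phosphatase genes were followed in T cells that either lacked or carried CTLA-4, the inhibitory receptor that competes with CD28 for its ligands on antigen-presenting cells. The 9 genes, Gadd45a, Gadd45b, Gadd45g, Dusp1, Dusp2, Dusp4, Dusp5, Dusp6 and Dusp10, were chosen by their symbols with the differences between genotypes in these arrays already known, so those differences are given as a description and their p-values carry no independent weight. All probe sets that the array annotation ties to exactly 1 of these symbols were taken, which gave 12 probe sets of 45037 on the array that are not controls. Of the 12, all passed the filter on dim signal, as did 27022 of the 45037. The T cells lacking CTLA-4 were 5C.C7 cells, whose transgenic antigen receptor recognises MCC, a peptide of moth cytochrome c. Their donors were RAG2-/-, CD45.1 and CTLA-4-/- (CTLA-4 KO). The T cells set against them came from 5C.C7 RAG2-/- CD45.1 donors with intact CTLA-4 (wild type). Both were transferred into B10.A recipients, which received MCC peptide and LPS, and the T cells were sorted after 4 days, with 3 arrays per genotype and 2 µg of total RNA per array. How many animals stand behind an array, the age of the animals and the sort gate are not given in the sources used here. The recipients have T cells of their own.

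GADD45 proteins are small stress- and signal-induced proteins that bind and activate the kinase MAP3K4 upstream of p38 and JNK, and they also bind PCNA, the inhibitor p21 and the CDK1 kinase. In helper T cells Gadd45b and Gadd45g are known for sustaining p38 activity and interferon-γ production after stimulation with interleukins 12 and 18. DUSP proteins of the MAP kinase phosphatase family act the other way: they remove phosphate from the threonine and tyrosine that switch a MAP kinase on. Many of them are transcribed in response to the kinases they switch off, so their transcripts are often read as a record of recent signalling.

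The genes lie apart in the genome, with Gadd45b and Dusp6 both on chromosome 10 and Dusp10 on chromosome 1, which also carries Ctla4. RefSeq start-site windows of build GRCm38.p6 were matched for 8 of the 9 genes. The 250 bases before the start are printed, 5′ to 3′ on the gene's own strand, for Gadd45b and Dusp6, whose values did not overlap between genotypes, for Gadd45g, which shares its motifs with Gadd45b, and for Dusp5, the member with a serum-response element. The windows are chr10:80929841-80930090 (+ strand) for Gadd45b, chr13:51846425-51846674 (+ strand) for Gadd45g, chr10:99262981-99263230 (+ strand) for Dusp6 and chr19:53528895-53529144 (+ strand) for Dusp5. Capitals mark every match, on either strand, to the motifs described after the sequences.
Gadd45b: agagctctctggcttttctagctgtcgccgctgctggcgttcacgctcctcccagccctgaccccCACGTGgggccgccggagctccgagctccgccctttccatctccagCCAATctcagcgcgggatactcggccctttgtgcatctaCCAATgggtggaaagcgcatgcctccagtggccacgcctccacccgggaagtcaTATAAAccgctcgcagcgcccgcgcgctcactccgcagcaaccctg
Gadd45g: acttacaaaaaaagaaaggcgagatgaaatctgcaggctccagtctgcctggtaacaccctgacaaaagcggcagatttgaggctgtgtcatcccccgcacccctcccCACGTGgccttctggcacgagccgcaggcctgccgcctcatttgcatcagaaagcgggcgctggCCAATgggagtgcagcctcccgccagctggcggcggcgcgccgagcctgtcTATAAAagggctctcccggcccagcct
Dusp6: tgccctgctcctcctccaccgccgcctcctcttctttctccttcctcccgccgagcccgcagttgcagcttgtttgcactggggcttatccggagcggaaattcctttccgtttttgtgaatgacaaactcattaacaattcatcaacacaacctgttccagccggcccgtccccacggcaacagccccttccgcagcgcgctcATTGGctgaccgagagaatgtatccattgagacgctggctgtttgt
Dusp5: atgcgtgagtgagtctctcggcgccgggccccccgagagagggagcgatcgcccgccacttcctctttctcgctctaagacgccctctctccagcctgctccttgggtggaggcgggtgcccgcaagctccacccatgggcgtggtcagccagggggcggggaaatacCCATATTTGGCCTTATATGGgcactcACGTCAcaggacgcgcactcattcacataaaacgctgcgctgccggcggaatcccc

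The Gadd45b and Gadd45g windows both held the E-box letters CACGTG, the letters TATAAA of the core promoter box and the letters CCAAT. The match to the second motif began 46 bases before the start in Gadd45b and 27 bases before it in Gadd45g. Among 32851 windows of the same length, 6.02% held the first of these motifs, 12.4% the second and 33.8% the third. Dusp5 held 2 CArG boxes side by side, the binding element of serum response factor, which 1.47% of all windows held, and 1 cAMP-response core (TGACGT, shown on its other strand). That core was also found in the window of Dusp1, with 1 of its places a palindrome matched on both strands, and in 6.47% of all windows. Dusp6 held the CCAAT letters on its other strand and no other motif of the set. No AP-1 site (TGANTCA, in 6.75% of windows) and no NF-kB site (in 7.25%) was matched in the 8 member windows, which says only that these letters are not in them.

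Each array had been scaled to a trimmed mean intensity of 500.003, and median intensities were 62.1, 63.7 and 71.5 in CTLA-4 KO arrays and 68.0, 69.5 and 75.2 in wild-type arrays. The targeted gene Ctla4 had 812, 791 and 784 in CTLA-4 KO arrays and 5332, 4787 and 4587 in wild-type arrays, which goes with the labels. Summed markers of T cells lay between 48135 and 49375 in CTLA-4 KO arrays and between 50662 and 55964 in wild-type arrays, over 7 measured genes of 8. By the same sum B cell markers reached 208 in CTLA-4 KO arrays and 302 in wild-type arrays, and myeloid markers reached 480.5 in CTLA-4 KO arrays and 405 in wild-type arrays. Of these, Cd79a, Pax5, Cd14 and Itgam averaged below the filter floor of 35.4, and Cd79b, Ms4a1, Csf1r, Cd68, Adgre1 and Lyz2 averaged above it. Genotypes did not overlap for Cd68, averaging 132 in CTLA-4 KO and 83.1 in wild type. All the other myeloid markers averaged lower in CTLA-4 KO than in wild type, with overlap. The dim B cell marker Pax5 did not overlap either and was lower, averaging 20.4 in CTLA-4 KO and 46.6 in wild type. CD8 markers lay between 315 and 513 in CTLA-4 KO arrays and between 262 and 422 in wild-type arrays. Dendritic cell markers lay between 158 and 205 in CTLA-4 KO arrays and between 208 and 297 in wild-type arrays. Of these, Zbtb46, Itgax and the dim Xcr1 were lower in CTLA-4 KO without overlap. They averaged 56.6, 53.6 and 7.34 in CTLA-4 KO and 90.0, 70.7 and 25.5 in wild type. Siglech and the dim Flt3 averaged higher in CTLA-4 KO, with overlap. NK cell markers reached 71.8 in CTLA-4 KO arrays and 54.9 in wild-type arrays. None of the tested markers passed without the replicate block, Cd28 and Cd3g were lower with it, and the part of other cell types in the results was not tested. Same-numbered arrays of both genotypes were treated as pairs in a second model with replicate number as a block. The 5′ to 3′ signal ratio of Actb, a measure of RNA integrity, was 0.567, 0.691 and 0.544 in CTLA-4 KO arrays and 0.418, 0.41 and 0.584 in wild-type arrays. That of Gapdh was lower and ordered the arrays differently. It was 0.109, 0.205 and 0.178 in CTLA-4 KO arrays and 0.103, 0.0955 and 0.25 in wild-type arrays. A model with the Actb ratio as a term is given beside the results, and the Gapdh ratio was not used as a term.

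Gadd45b was the member that differed most, at 3.06 and 2.57 times the wild-type mean in CTLA-4 KO cells by its 2 bright probe sets. Its brightest probe set, 1450971_at, read 1279.5, 1302 and 1515 in CTLA-4 KO arrays and 433, 531 and 376 in wild-type arrays. Every CTLA-4 KO array thus lay at a higher level than any wild-type array. The means were 1366 ± 130.2 in CTLA-4 KO and 447 ± 78.1 in wild type (SD, n = 3 arrays each), a ratio of 3.06, and the fitted log2 difference reached 1.59 ± 0.15 (SE, limma adjusted p = 0.00193). Intensities were taken as log2(intensity + 16), and every log2 difference is CTLA-4 KO minus wild type on that scale, which understates the change of dim probe sets. In sorted bulk RNA, more transcript per cell and a larger share of cells that carry it cannot be told apart.

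A second probe set of Gadd45b, 1449773_s_at, gave nearly the same picture. It read 1164, 1115 and 1099.7 in CTLA-4 KO arrays and 455, 415 and 444 in wild-type arrays. Its log2 difference was 1.33 ± 0.12 (SE, limma adjusted p = 0.00161), with a ratio of means of 2.57. The arrays of one genotype were unusually close to each other here, with a within-genotype SD of 0.06 on the log2 scale against a median of 0.22 over all tested probe sets, and 1.83% of these had a smaller one. The suffix of this probe set marks possible cross-hybridisation with other transcripts. The third probe set, 1420197_at, was dim, at 53.01, 70.5 and 88.7 in CTLA-4 KO arrays and 49.2, 62.2 and 48.4 in wild-type arrays. Its genotypes overlapped, and its log2 difference of 0.31 ± 0.25 did not pass (limma adjusted p = 0.606). Neither the s_at probe set nor the dim one has an accession in the annotation used here, and so which part of the gene they read is not known.

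The increase of Gadd45b was present in each pair of same-numbered arrays, at 1.53, 1.27 and 1.96 on the log2 scale for 1450971_at and at 1.32, 1.39 and 1.28 for 1449773_s_at. Pair 2 came from donors with high Xist, at 12599 in CTLA-4 KO and 14608 in wild type (106.7 was the highest value among the rest). With replicate number as a block, both probe sets had a limma adjusted p of 3.2e-05. With the Actb ratio as a term their log2 differences were 1.81 and 1.31 (limma adjusted p = 0.0124 and 0.0455), in a model that left 22 probe sets called over the whole array against 339 without the term. Across all 18 alternatives the leading Gadd45b probe set, or the mean of the 3 probe sets where that stood for the gene, kept its direction and passed, with log2 differences between 1.08 and 1.81 and adjusted p between 3.2e-05 and 0.0435.

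**Figure D1:**
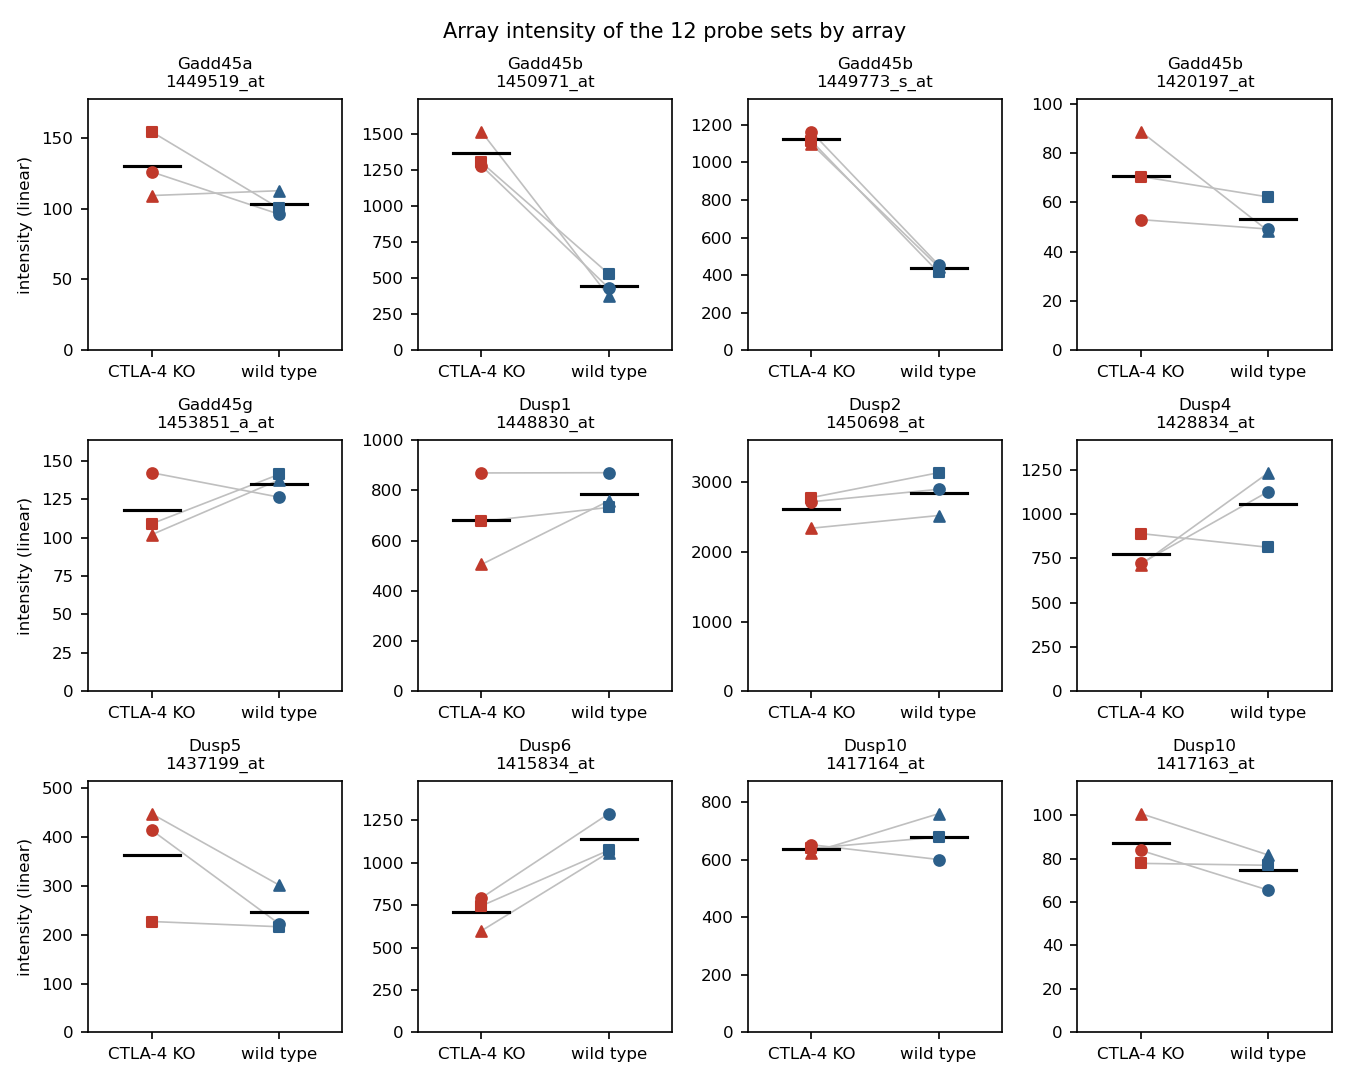
Linear array intensity of each of the 12 probe sets, with CTLA-4 KO arrays in red on the left of each panel and wild-type arrays in blue on the right. Circles, squares and triangles are replicates 1, 2 and 3, grey lines join same-numbered arrays and black bars are group means of 3 arrays; the 2 bright Gadd45b probe sets and Dusp6 are the panels in which the genotypes do not overlap.

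For the other GADD45 genes the genotypes overlapped. Gadd45a, a classic p53-induced member, had 126, 154 and 109 in CTLA-4 KO arrays and 96.1, 100.3 and 113 in wild-type arrays. Its lowest CTLA-4 KO array lay within the wild-type range, and the log2 difference was 0.28 with a 95% interval of −0.18 to 0.74 (limma adjusted p = 0.557). Gadd45g, a member induced by cytokines in T cells, had 142, 109 and 102 in CTLA-4 KO arrays and 126, 141 and 137 in wild-type arrays. Here pair 1 was positive at 0.15 and pairs 2 and 3 were negative at −0.33 and −0.38, and the log2 difference was −0.19 with an interval of −0.63 to 0.26 (limma adjusted p = 0.709). These intervals end well below the difference of 1.59 at the leading Gadd45b probe set, but whether Gadd45b differed more than they did was not tested.

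Of the phosphatases that act mainly on ERK, Dusp6 had lower values in every CTLA-4 KO array than in any wild-type array. Dusp6 encodes a cytoplasmic phosphatase of ERK whose own transcript is induced by ERK signalling. It had 794, 747 and 599 in CTLA-4 KO arrays and 1290.1, 1074 and 1061 in wild-type arrays. The mean of 713 ± 101.2 in CTLA-4 KO was 62.5% of that in wild type, 1142 ± 129 (SD, n = 3 arrays each). Its log2 difference of −0.67 ± 0.14 narrowly missed the threshold without the block (limma adjusted p = 0.055) and passed with it (0.00277), where pairs 1, 2 and 3 differed by −0.69, −0.52 and −0.81. It also passed with array weights (0.0431) and with the filter at the 60th percentile (0.0429), and did not with the Actb ratio as a term, where the log2 difference was −0.66 (limma adjusted p = 0.362).

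Dusp5, a nuclear phosphatase of ERK, leaned the other way. It read 414, 227 and 448 in CTLA-4 KO arrays and 223, 216 and 302 in wild-type arrays. Replicates 1 and 3 of CTLA-4 KO were above all wild-type arrays while replicate 2 was within their range, and its within-genotype SD of 0.40 on the log2 scale was larger than that of 85.5% of tested probe sets. The log2 difference of 0.49 ± 0.25 did not pass in either model (limma adjusted p = 0.385 unblocked and 0.1004 blocked). Dusp4, a nuclear phosphatase of ERK and JNK, had 722, 889 and 715 in CTLA-4 KO arrays and 1126, 812 and 1232 in wild-type arrays. It was lower in pairs 1 and 3, by −0.63 and −0.77 on the log2 scale, and slightly higher in pair 2, at 0.13. The log2 difference was −0.42 ± 0.17 (limma adjusted p = 0.259 unblocked and 0.108 blocked), and −0.72 with the Actb ratio as a term. For both genes replicate 2, the pair with high Xist, had the pair difference farthest from the other pairs. Among the brightest probe sets of the other members, pair 2 was farthest for Dusp2 and Dusp6. Pair 1 was farthest for Gadd45g and Dusp10, and pair 3 for Gadd45a, Gadd45b and Dusp1. Whether Xist status plays a part was not tested.

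Dusp1, Dusp2 and Dusp10 act on p38, JNK or both, and Dusp1 and Dusp2 on ERK as well, and none of them passed the test. Dusp1, the immediate-early phosphatase MKP-1, had 869.9, 677 and 505 in CTLA-4 KO arrays and 871, 733 and 758 in wild-type arrays. Its pair differences were −0.0016, −0.11 and −0.57 on the log2 scale, so pair 3 made up most of its mean of −0.23 (95% interval −0.64 to 0.18, limma adjusted p = 0.601). Dusp2, also called PAC-1 and typical of activated lymphocytes, had 2718, 2778 and 2339 in CTLA-4 KO arrays and 2897, 3135 and 2521 in wild-type arrays. It was lower in every pair, by −0.09, −0.17 and −0.11, a difference too small to pass (log2 −0.12, interval −0.38 to 0.14, limma adjusted p = 0.658). Dusp10, known as MKP-5, had 651, 639 and 624 in CTLA-4 KO arrays and 600.1, 678 and 759 in wild-type arrays at its bright probe set 1417164_at (log2 −0.08, interval −0.38 to 0.21, limma adjusted p = 0.813). At its dim probe set 1417163_at the log2 difference was 0.19 (limma adjusted p = 0.733), so the sign of Dusp10 depends on the probe set.

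**Figure D2:**
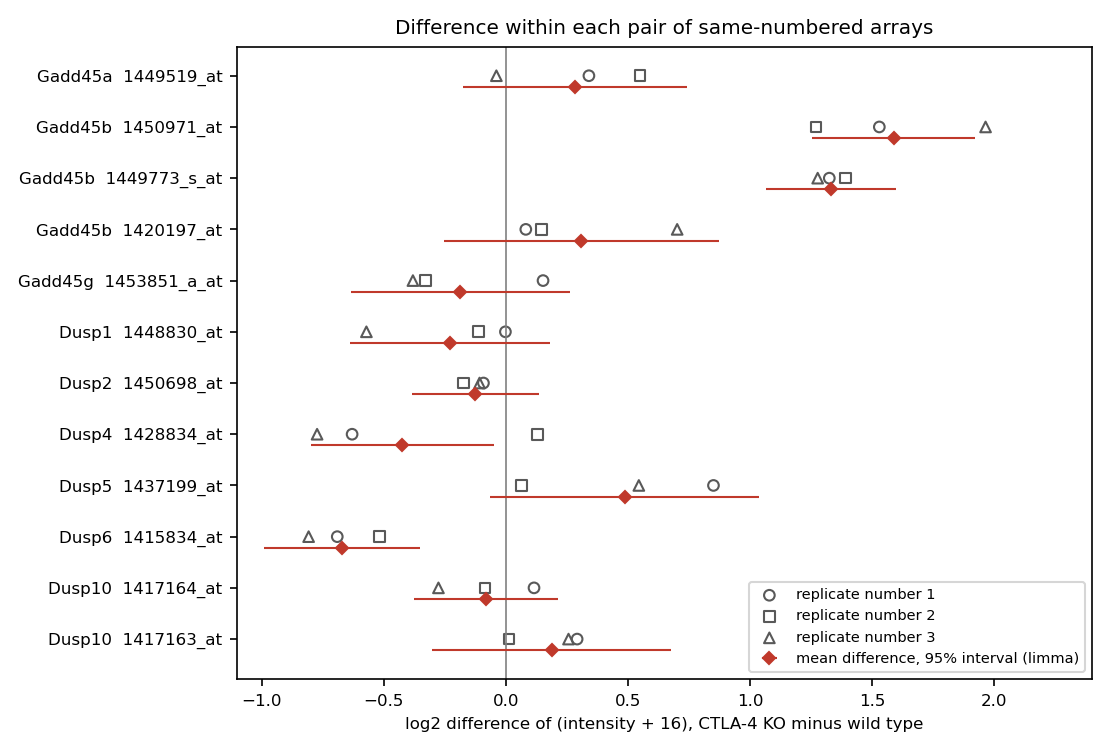
Log2 difference of (intensity + 16), CTLA-4 KO minus wild type, for each probe set: open symbols are the 3 pairs of same-numbered arrays, and red diamonds with lines are the limma estimate and its 95% interval without the block. The 2 bright Gadd45b probe sets lie between 1.27 and 1.96 in every pair, and Dusp6 lies between −0.81 and −0.52.

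Counted over the set, 2 of the 12 probe sets passed at an adjusted p of 0.05, both of Gadd45b and both higher, where 1.25% of all tested probe sets passed. With the replicate block it was 3 of 12, with Dusp6 added as lower, where 8.66% passed. Values of the genotypes did not overlap for 3 of the 12, against 21% of all tested probe sets. Because the genes were taken up with this contrast known, nothing is read from these shares. The 12 probe sets had 6 positive and 6 negative differences with a median of 0.05 on the log2 scale, and the median over all tested probe sets was −0.04. The differences of the same sign in all 3 pairs numbered 8 of 12, against 44.5% of all tested probe sets. Phosphatase genes lay on both sides of 0, and the 3 GADD45 genes did as well.

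Genes that work with the members were counted in 9 lists with 136 different genes, of which 107 were tested. Without the block 4 of the 107 rose and none fell, and with the block 18 passed. None passed with the Actb ratio as a term, where 11 of all 11990 tested genes did. In the 6 fits that left out 1 array the calls were often lost: Ccnb2 and Asns passed in 2 of them, Fos in 1 and Map2k3 in 0, with limma adjusted p up to 0.158, 0.062, 0.111 and 0.189. None of the 4 passed without the intensity trend. Over those 11990 genes, each read by its brightest probe set, 143 rose and 60 fell without the block, 657 rose and 413 fell with it (over all probe sets, 212 rose and 127 fell without the block, and 1044 rose and 1297 fell with it), and the median log2 difference was 0.0018.

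Among partners and cell cycle targets of the GADD45 proteins, 1 of 5 tested genes rose, 3 with the replicate block, and the list's median log2 difference was 0.92. Ccnb2, a mitotic cyclin, had 2882, 2703 and 1544 in CTLA-4 KO arrays and 1223, 851 and 882 in wild-type arrays (limma adjusted p = 0.0322). The partner Cdk1, the mitotic kinase, had 913 ± 249 in CTLA-4 KO and 418 ± 100.4 in wild type (0.0517, and 0.00026 with the block). Cdkn1a, which encodes p21, had 204, 258 and 210.1 in CTLA-4 KO arrays and 172, 103 and 74.0 in wild-type arrays (0.127, and 0.0266 with the block). Map3k4, the kinase that GADD45 proteins activate, averaged 1953 ± 185 in CTLA-4 KO and 1939.6 ± 275 in wild type (log2 difference 0.02, SE 0.13). Its probe set carries a suffix that marks possible cross-hybridisation.

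The MAP kinases and the kinases above and below them had a median log2 difference of −0.08, and 1 of 25 tested genes rose. It was Map2k3, an activating kinase of p38, with 2326, 2129.5 and 1928 in CTLA-4 KO arrays and 1506, 1418 and 1263 in wild-type arrays, without overlap (log2 difference 0.60 ± 0.12, limma adjusted p = 0.0402, and 0.00195 with the block). With the block Map2k2, which activates ERK, was higher (2215 ± 245 in CTLA-4 KO and 1685 ± 326 in wild type, 0.0339) and Rps6ka3, a ribosomal S6 kinase downstream of ERK, was lower (1687 ± 122 in CTLA-4 KO and 2174 ± 118 in wild type, 0.0371). Of 11 tested genes listed as p38 and JNK targets, some of them transcription factors regulated as proteins, none passed without the block. With it Il18rap passed (937 ± 47.1 in CTLA-4 KO and 618 ± 65.4 in wild type, 0.00669). Il18rap encodes a subunit of the interleukin-18 receptor and lies on the same chromosome as Ctla4. That list had a median of 0.06.

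Other phosphatases gave no calls. Of 9 tested genes listed as other MAP kinase phosphatases none passed in either model, with a median log2 difference of −0.10. Most of the 9 are not DUSP genes but broader protein phosphatases. Those with the smallest p were Dusp3, dim at 33.3 ± 10.5 in CTLA-4 KO and 52.9 ± 17.9 in wild type, and Dusp22, at 269 ± 26.7 in CTLA-4 KO and 325 ± 47.4 in wild type (limma adjusted p = 0.506 and 0.511). Among 9 further genes listed with the dual-specificity phosphatase family, not all of them active enzymes, none passed either, and the median was 0.02. Dusp11 and Styx had the smallest p there, at log2 differences of −0.20 and −0.16 (limma adjusted p = 0.32 and 0.562).

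Genes tied to ERK signalling were mixed. Of 12 tested genes of ERK feedback and targets none passed without the block, and the median was −0.0063. With the block Spry1, a feedback inhibitor of receptor signalling to ERK, was lower, as Dusp6 was: it had 838, 763 and 599 in CTLA-4 KO arrays and 1425, 1201 and 1059 in wild-type arrays (limma adjusted p = 0.0566, and 0.00132 with the block). The transcription factor gene Myc was higher with the block (1369 ± 138 in CTLA-4 KO and 1026 ± 101.6 in wild type, 0.0282). Of 12 immediate-early genes, induced within minutes of receptor stimulation, Fos rose, with 1175, 1094 and 1082 in CTLA-4 KO arrays and 739, 576 and 574 in wild-type arrays (log2 difference 0.82 ± 0.14, limma adjusted p = 0.0215). Nr4a1 and Zfp36, a receptor-induced nuclear receptor and an RNA-destabilising protein, were higher with the block, by 0.50 and 0.38 on the log2 scale (limma adjusted p = 0.0104 and 0.0253), and the list's median was 0.05. Dusp1, which is often induced with Fos, had a log2 difference of −0.23 in the same arrays.

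The stress programmes that can induce GADD45 genes were looked at last. Of 14 tested p53 targets none passed without the block, and the median was −0.05. Perp, a p53 target of cell adhesion, had 190.2, 307 and 177 in CTLA-4 KO arrays and 98.5, 115 and 76.4 in wild-type arrays and was higher with the block (limma adjusted p = 0.0664, and 0.00541 with the block), as was the nuclease gene Aen (log2 difference 0.47, 0.049995 with the block). Among 10 genes of amino acid and unfolded protein stress 1 rose, Asns, the asparagine synthetase, with 423, 388 and 526 in CTLA-4 KO arrays and 217, 199 and 201 in wild-type arrays (log2 difference 1.05 ± 0.17, limma adjusted p = 0.0173). Trib3, Xbp1 and Ddit4 were higher with the block, by 0.72, 0.30 and 0.66 on the log2 scale (limma adjusted p = 0.0328, 0.0465 and 0.0409), and the median of this list was 0.13. The probe sets of Trib3 and Xbp1 carry suffixes that mark possible cross-hybridisation, and the values of Ddit4 overlapped between genotypes.

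**Figure D3:**
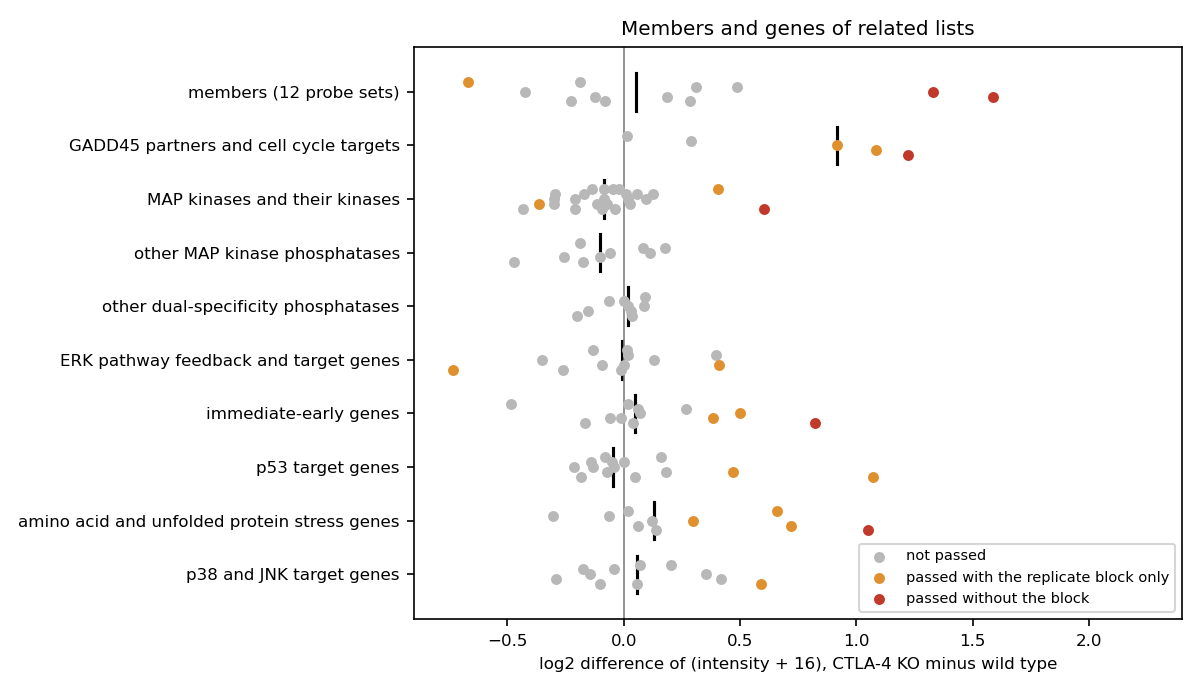
Log2 differences, CTLA-4 KO minus wild type, of the 12 member probe sets and of the tested genes of 9 related lists, 1 point each, with the median of each row as a black bar. Red points passed without the replicate block, orange points with it only and grey points in neither model; the 2 red member points are Gadd45b and the orange one is Dusp6.

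Patterns across arrays were also compared without the genotype difference, by correlating deviations from the genotype means over the 6 arrays. For the leading Gadd45b probe set the highest values of Pearson's r were those of Slc25a39 (0.995), Ube3b (0.995) and F13a1 (0.995), and for Dusp6 those of Leo1 (0.998), Armt1 (0.994) and Bub1b (0.994). With so few free values many genes come close: 214 of 11981 genes exceeded an r of 0.9 for Gadd45b. Same-numbered arrays also share their replicate number and Xist status, so these values describe these arrays only.

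Under the 18 alternative settings Gadd45b passed in each, and Dusp6 passed in 4. Dusp5 and Dusp4 kept their sign and did not pass under any of the 18.

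**Figure D4:**
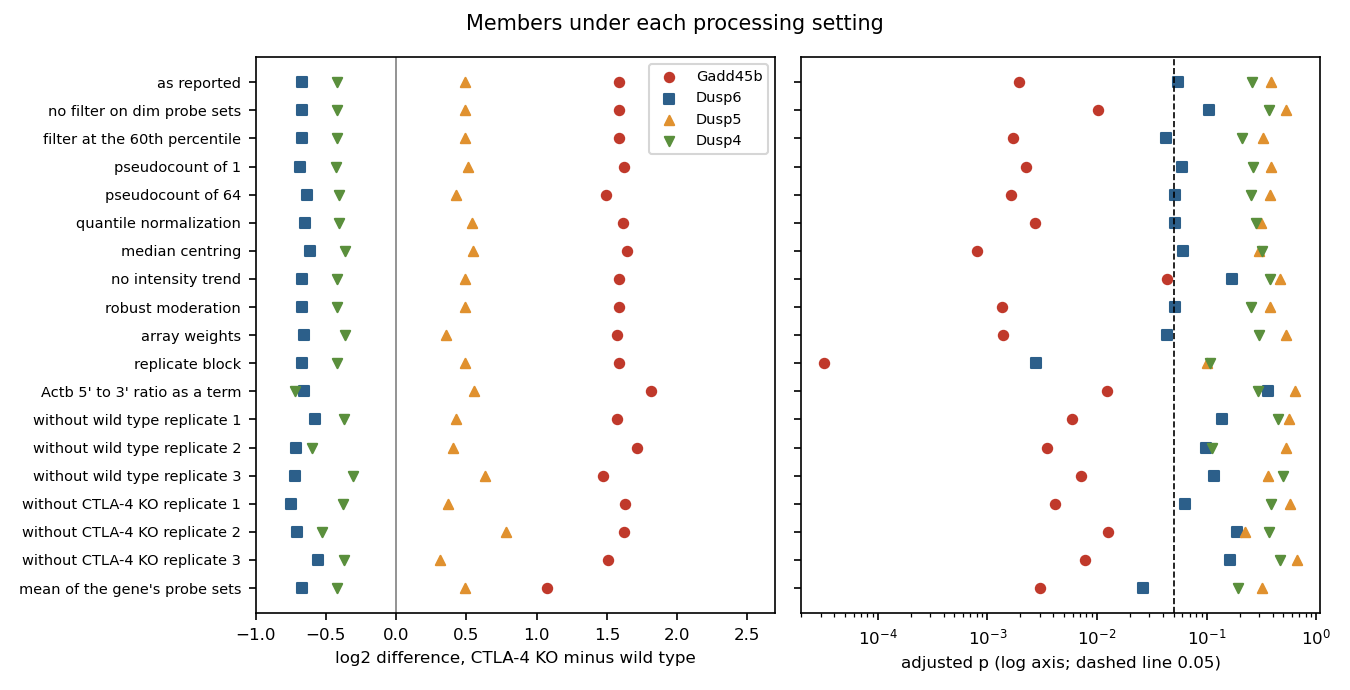
Log2 difference (left, CTLA-4 KO minus wild type) and limma adjusted p on a log axis (right, dashed line at 0.05) of 4 members under each processing setting, 1 row per setting. Gadd45b lies left of the dashed line in every row, with its log2 difference between 1.08 and 1.81, and Dusp6 lies between −0.75 and −0.55.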

How the data were processed

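RNA of the 6 samples was hybridised to Affymetrix arrays from biotin-labelled cRNA, per the labels' protocols. The authors deposited 1 linear intensity per probe set, and the submitters' processing notes name MAS5 and Partek, without versions. The equal trimmed means (2% at each end) point to MAS5 scaling. Detection calls were not used here, so dim values are noisy.

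From these intensities log2(intensity + 16) was computed, 64 control probe sets were dropped, and the 27022 probe sets with a mean log2 value at or above the 40th percentile (an intensity of 35.4) were kept. In R 4.3.3, limma 3.58.1 (eBayes moderation with an intensity trend) compared genotypes across all of them, with two-sided p-values adjusted by Benjamini-Hochberg and a threshold of 0.05. The fit was tested on simulated data with changes of known size and without a replicate effect. It missed most of the smaller changes, which were larger than the log2 difference of any member probe set that did not pass.

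Groups and replicate numbers came from the sample titles, which call the samples biological replicates but name no animals, so p-values measure the spread between these samples. Same-numbered arrays deviated together from their group means (correlations of 0.371, 0.24 and 0.254), so the numbers were taken as pairs and the model with the block is given beside the first. The labels do not say what a number marks.

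Genes were named from the array annotation (1 gene for 34958 probe sets, several for 932, none for 9211), with symbols updated through RefSeq. A gene was read by its brightest probe set. Promoter windows are RefSeq's. The members, lists, motifs and tests were chosen with earlier results of these data known. Named were all members, Ctla4, the markers, and from each list up to 4 genes that passed with or without the block, or the 2 with the smallest p where none did. Map3k4 and the markers Cd79a, Cd79b, Ms4a1, Pax5, Cd14, Itgam, Csf1r, Cd68, Adgre1, Lyz2, Cd28 and Cd3g were named after their values were seen. So were the dendritic cell markers Zbtb46, Itgax, Xcr1, Siglech and Flt3.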

Additional observations from a re-analysis of the deposited data

How the results depend on the processing

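Of the member calls, both Gadd45b probe sets passed in every fit with all arrays and in each of the 6 fits that left out 1 array, where the log2 difference of the leading probe set lay between 1.48 and 1.71. The count of member probe sets called was 2 or 3 in all of these fits, with Dusp6 as the third, and 1 when the probe set marked for cross-hybridisation was set aside. The count over the whole array was less stable. Against 339 it was 111 with no filter on dim probe sets, 20 without the intensity trend, 521 with array weights, 2341 with the replicate block and 22 with the Actb ratio as a term, and it lay between 62 and 217 when 1 array was left out. The share of higher calls among them, 62.5% as reported, was 73.5% under median centring, 44.6% with the replicate block and 40.9% with the Actb ratio as a term, so lower calls were the majority in the last 2 of these. It lay between 51.5% and 73.4% when 1 array was left out. Dusp10 turned to 0.053 on the log2 scale when the mean of its probe sets stood for the gene. The other members kept their direction throughout, and the cause of the shifts in the whole-array count was not tested. The replicate block changed no member call other than that of Dusp6. Dusp4 and Dusp5 did not pass in any fit run. The same settings were run for the 4 list genes called without the block, a step added after seeing the data. Each kept its direction, but none of the 4 passed without the intensity trend (Ccnb2 0.16, Map2k3 0.167, Fos 0.128 and Asns 0.086, limma adjusted p) or with the Actb ratio as a term, and Ccnb2 (0.0936) and Map2k3 (0.079) did not pass with no filter on dim probe sets.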
